A study of Saccharomyces cerevisiae with 7 samples.

Results

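Between 1 h and 2 h of meiosis in budding yeast, 335 of 5666 measured genes differed by 2-fold or more, 270 of them higher and 65 lower at 2 h. Members were chosen by subtracting the 1 h value of each row from its 2 h value and keeping differences of at least 1 on the log2 scale, in either direction. They made up 5.91% of the rows with values, 4.77% higher and 1.15% lower. A further 475 of the table's 6141 rows held no value at any hour.

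The samples were Saccharomyces cerevisiae cultures taken at 1, 2, 3, 4, 5, 6 and 8 h of a meiotic time course, with messenger RNA of each hour labelled red and hybridised against a green-labelled mix pooled from the time points. Each deposited value is the log2 of a gene's ratio to the mix, divided by the same ratio at 0 h, so that 0 is the gene's own level at 0 h and levels of different genes cannot be ranked against each other. The design text names 3 independent cultures, but the table has 1 column for each hour, so the difference between 1 h and 2 h has no replicate error and no test was possible. The strain, its ploidy and genotype, the medium and the array platform were not given in the sources used here.

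Diploid yeast cells starved of nitrogen and of a fermentable carbon source leave the mitotic cycle, replicate their DNA once, pair and recombine their chromosomes, and pass through both meiotic divisions to form spores. Starved cells are known to cut back the synthesis of ribosomes, which takes ribosomal RNA transcription, a large set of nucleolar assembly factors and the ribosomal proteins. Entry into meiosis is driven by the transcription factor Ime1 and the kinase Ime2, and a later wave of genes for the divisions and spore formation by Ndt80.

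The labelled process could be checked on those regulators. IME1 had values of 2.22 at 1 h and 2.85 at 2 h, and IME2 of 4.38 and 5.10, so both were already well above their 0 h level at the start of the interval. NDT80 stood at -0.24 and -0.10 and reached 6.90 at 5 h. The interval therefore lay after the early regulators had gone up and before NDT80 did. UME6, which represses early meiotic genes in growing cells, stood at 0.35 and 0.33.

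Over all measured genes the median difference was 0.02, with quartiles of -0.20 and 0.29 and an SD over genes of 0.491. The median was 1.31 among the higher members and -1.18 among the lower ones, and the whole range ran from -2.22 to 3.73. A 4-fold difference was reached by 31 higher members and by 1 lower member, NRS1. At the threshold, ZPR1 and YGR226C (1.00) and RPL23B, RPS23A and NAN1 (1.01) were just inside on the higher side. MPC54 and ALG5 (0.99) and YDL152W, RCK1 and YGR079W (0.98) were just outside. On the lower side YCR013C, FMP45 and SFC1 (-1.0) and FMP16 and CTA1 (-1.01) were inside, while PST2, YAT2, ENO2 and DAL3 (-0.99) and YHR213W (-0.98) were outside.

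By the same rule, 56 genes (0.988%) differed over the hour that followed and 120 (2.12%) over the next. The interval from 4 h to 5 h had 608 (10.7%), the most of the 6 intervals, after which 9 (0.159%) differed from 5 h to 6 h and 97 (1.71%) from 6 h to 8 h. Neighbouring intervals share a column, and the last of them spans more than 1 h.

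**Figure D1:**
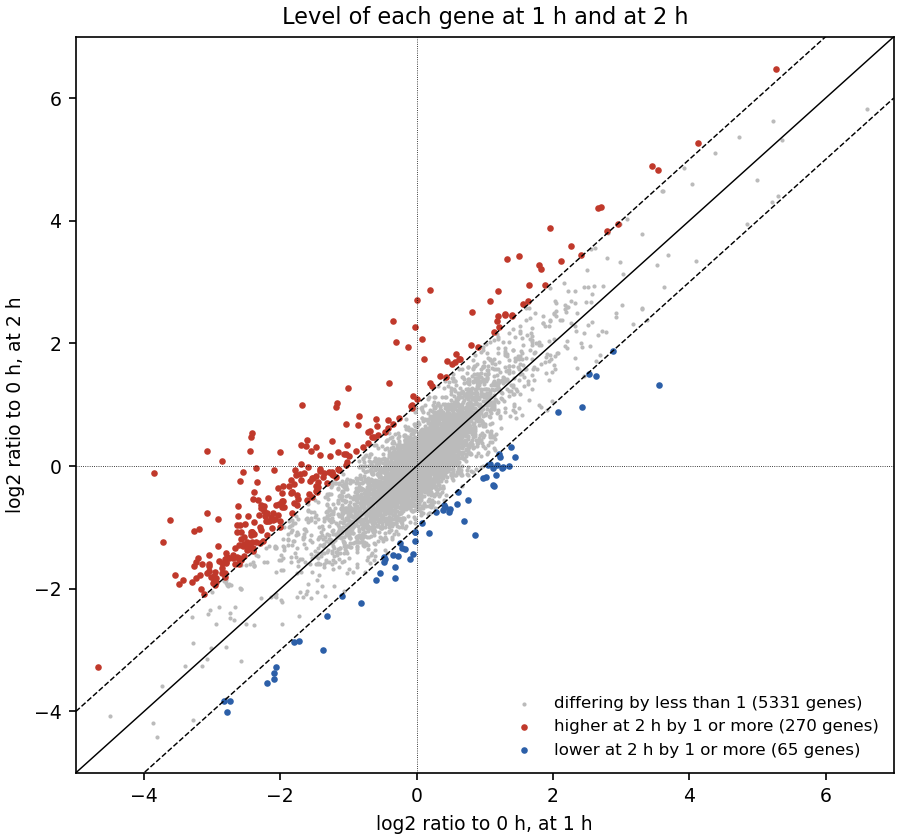
Level of each measured gene at 1 h (x axis) against 2 h (y axis), both as log2 ratio to 0 h, with the members marked by direction. The higher members lie mostly to the left, below their 0 h level at 1 h (195 of 270 at -1 or less), while the lower members lie on both sides of 0 (12 of 65 at -1 or less and 21 at 1 or more). The rule uses the values of both axes, so it fixes part of these positions.

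Most of the higher members had been below their 0 h level at 1 h. In RNA from whole cultures, fewer cells with a transcript and less of it per cell cannot be told apart. Of the 270, 195 (72.2%) stood at -1 or less at 1 h, 45 (16.7%) lay between -1 and 1, and 30 (11.1%) stood at 1 or more. Over all measured genes 10.3% stood at -1 or less and 7.11% at 1 or more at 1 h, and 7.92% and 9.42% at 2 h. The median of the higher members was -1.84 at the earlier hour and -0.33 at the later, and 205 of them were closer to the 0 h level at 2 h than at 1 h. Higher members had to be lower at 1 h than at 2 h, so the rule favours low 1 h values and fixes part of these counts. Of the 195 low genes, 79 were still at -1 or less at 2 h, 114 lay between -1 and 1, and 2 had gone from at least 2-fold below to at least 2-fold above 0 h. These were HXT2, a high-affinity glucose transporter (-1.0 to 1.27), and ELO3, a fatty acid elongase (-1.17 to 1.03).

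**Figure D2:**
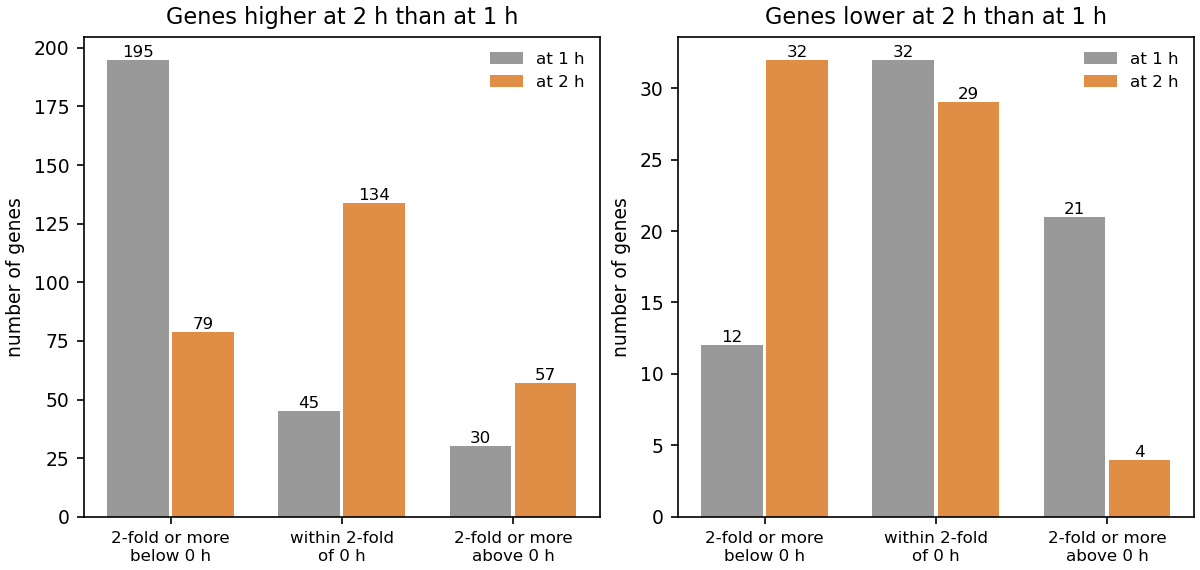
Number of higher and of lower members (y axis) that stood at -1 or less, between -1 and 1, or at 1 or more relative to 0 h (log2), at 1 h and at 2 h (x axis). Of the 270 higher members, 195 were at -1 or less at 1 h and 79 at 2 h; of the 65 lower members, 21 were at 1 or more at 1 h and 4 at 2 h.

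Genes for making ribosomes were the most numerous group. The 3 lists of assembly factors, namely the small-subunit processome and 90S particle, the 60S assembly factors, and the box C/D and box H/ACA particles, which guide chemical modification of ribosomal RNA, held 143 measured genes, of which 76 were higher and 0 lower. They made up 28.1% of all higher members and 15 of the 31 genes with a 4-fold difference. The median difference over the 143 genes was 1.09, against 0.02 over all measured genes, and 137 of them lay above 0 and 5 below. At 1 h, 73 of the 76 members stood at -1 or less, and at 2 h 13 did.

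The small-subunit processome, which folds and cuts the ribosomal RNA precursor on the small-subunit side, had 36 of 57 measured genes higher, with differences from -0.04 to 3.73. UTP13, a subunit of this particle, had the largest difference of the table: its values, in order of the 7 hours, were -3.85, -0.12, -1.02, -0.85, -1.51, -1.03 and -0.43. It was thus far below its 0 h level at 1 h, near that level at 2 h, and lower again afterwards. BFR2, another processome factor, went from -3.07 to 0.24, a difference of 3.31, and was at -0.69 at 3 h and -1.42 at 4 h. UTP6, also a subunit, went from -2.85 to 0.08 and stood at 0.43 at 5 h and 0.80 at 8 h. UTP5 (-2.55 to -0.10) and NOP14 (-3.72 to -1.24), both of the same particle, and LTV1 (-2.59 to -0.25), a factor of small-subunit maturation and export, differed by 2.34 to 2.48. NOP14 was therefore still more than 2-fold below 0 h at 2 h while the others were close to it.

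Of the 60S assembly factors, 35 of 72 were higher, with a median difference of 0.96 over the list. ARX1, which accompanies the large subunit out of the nucleus, went from -2.43 to 0.47, stood at 0.01 at 3 h and lay between -0.11 and 0.28 from 4 h on. NSA2, a nucleolar 60S factor, went from -2.44 to 0.24 and was at -0.95 at 3 h and -1.68 at 5 h. The values of these genes lay close at 1 h and 2 h and apart from 3 h on. NOP7, which joins the early large-subunit precursor, went from -3.08 to -0.76. The box C/D and H/ACA list had 5 of 15 genes higher. CBF5, the pseudouridine synthase of the H/ACA particle, went from -3.20 to -1.49, and SNU13, an RNA-binding protein of the C/D particle, from -2.03 to -0.36. NOP56 (-3.55 to -1.77) and NOP58 (-2.59 to -0.96), core proteins of the box C/D particle, were among them, while NOP1, the methyltransferase of the same particle, stood at -0.71 and -0.68.

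RNA polymerase I and III subunits and factors, which make ribosomal and transfer RNA, had 6 of 39 measured genes higher (15.4%). Over all measured genes the share was 4.77%. The median difference of the list was 0.35, against 0.02 over all measured genes. RPA34, a polymerase I subunit, had values of -2.42, 0.54 and -0.02 over the first 3 hours. RPA12, another, had values of -2.92, -0.87 and -1.57. Both had a higher value at 2 h than at 1 h or 3 h. RPC40, shared by polymerases I and III, went from -2.11 to -0.77 and on to -0.36.

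Cytosolic ribosomal proteins supplied a further 57 higher members out of 128 measured genes, and 0 lower members. Their median difference was 0.90, and 126 of the 128 lay above 0; the exceptions were RPL32 (-0.25) and RPS27A (-0.03). Levels of the 57 members ran from -3.48 to -1.78 at 1 h, with a median of -2.80, and from -2.09 to -0.07 at 2 h, with a median of -1.54. At 2 h 53 of the 57 were still at -1 or less, and of all 128 genes 0 stood above the 0 h level. RPS12, a small-subunit protein with no second copy in the genome, had the largest difference of the list, 2.21, from -3.27 to -1.06, with -1.02 at 3 h and -2.75 at 5 h. RPS16B, a small-subunit protein gene with a near-identical copy, went from -3.24 to -1.57. Together, ribosomal proteins and assembly factors were 133 of the 270 higher members (49.3%). Among the 5666 measured genes they numbered 128 and 143.

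Large-subunit and small-subunit proteins gave like counts, 32 of 73 and 25 of 55, with medians of -2.20 to -1.32 and of -2.43 to -1.47 over all measured members. Many ribosomal proteins are encoded by a pair of near-identical genes, whose copies an array may not tell apart. Of 52 measured pairs, both copies passed the rule in 14, 1 copy in 16 and neither in 22, and the copies of a pair differed by a median of 0.205 in their change. The widest gap was 1.34, in RPL37A (-1.57 to -1.20) and RPL37B (-1.78 to -0.07). The 67 measured mitochondrial ribosomal proteins had 0 members in either direction and a median difference of -0.10.

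Other genes of translation and of nucleotide supply showed fewer members. Translation initiation and elongation had 2 of 42 higher (4.76%), no larger a share than the 4.77% of all measured genes. These were YEF3, elongation factor 3 of fungi (-2.40 to -0.54), and GCD10, a subunit of a transfer RNA methyltransferase (-2.28 to -0.63). Of 37 transfer RNA synthetases and modification enzymes 1 (2.70%) was higher, DUS1, which makes dihydrouridine (-1.04 to 0.20). Purine synthesis had 4 of 30 higher (13.3%), all in the branch to guanine nucleotides. GUA1 is the GMP synthase gene (-2.18 to -0.52). The others were the IMP dehydrogenase genes IMD3 (-1.42 to -0.08), IMD4 (-1.95 to -0.66) and IMD2 (-1.23 to -0.14). The IMD genes are close copies whose signals may be shared. ADE3, a folate enzyme that feeds the same pathway, was lower (1.18 to 0.02). Of 16 pyrimidine genes 2 (12.5%) were higher, the CTP synthase URA7 (-1.42 to -0.04) and the uridine kinase URK1 (-0.78 to 0.31).

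**Figure D3:**
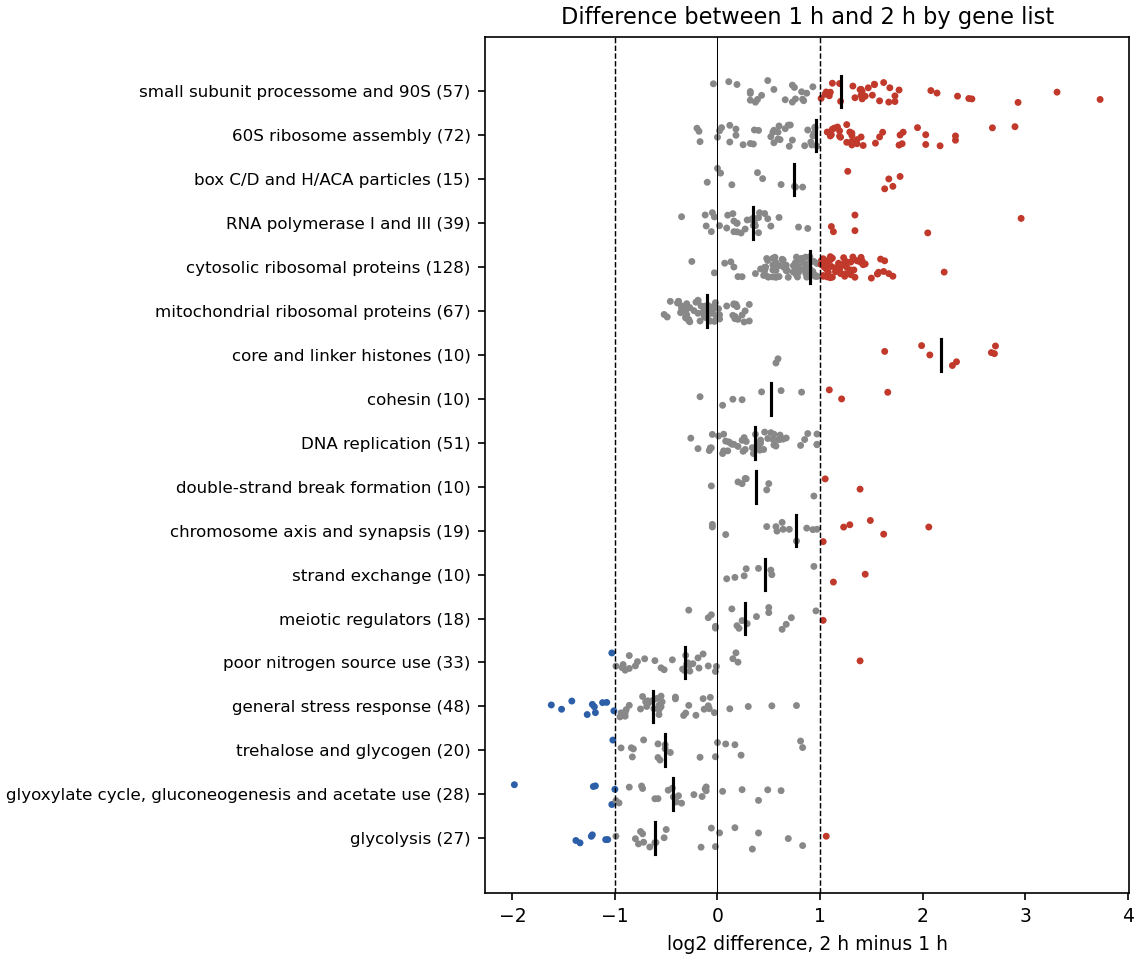
Difference between 2 h and 1 h (log2) of each measured gene in selected gene lists; dashed lines mark the rule of 1 in each direction, red and blue points the genes past it, and black bars the list medians. Histones lie furthest to the higher side (median 2.18), ribosome assembly and ribosomal proteins follow (medians of 1.20, 0.96 and 0.90 for the processome, 60S and ribosomal protein lists), and glycolysis and general stress genes lie on the lower side (medians of -0.61 and -0.625).

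All 8 core histone genes were higher at 2 h, with levels from -0.35 to 0.20 at 1 h and from 1.74 to 2.87 at 2 h. Histones pack DNA into nucleosomes, and each is encoded by a pair of genes: HTA1 (-0.35 to 2.36) and HTA2 (0.01 to 2.71) for H2A, HTB1 (0.08 to 2.07) and HTB2 (0.20 to 2.87) for H2B, HHT1 (-0.12 to 1.95) and HHT2 (0.11 to 1.74) for H3, and HHF1 (-0.30 to 2.03) and HHF2 (-0.02 to 2.27) for H4. The copies of each histone are close in sequence, so the 8 rows are not 8 independent measurements. HTZ1, the H2A variant, and HHO1, the linker histone, had differences of 0.59 and 0.57 and were not members. The median of the 8 core genes went down from 2.17 to 1.97 by 3 h and 0.66 by 8 h. At 3 h all 8 were below their 2 h value.

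DNA replication genes did not pass the rule beside the histones: 0 of 51 were higher and 0 lower, with a median difference of 0.37 and 45 of 51 above 0. The 3 nearest to the rule, at 0.97, were RNR1, the large subunit of ribonucleotide reductase (0.53 to 1.50), PRI2, a primase subunit (0.97 to 1.94), and RFA3, of the single-strand binding complex (1.02 to 1.99). Histone chaperones had 0 of 14 in either direction and a median of 0.28. Of the cyclins that drive S phase, CLB6 went from 0.44 to 1.71 and CLB5 from 1.40 to 2.47. Both stood much higher later, CLB6 at 5.65 and CLB5 at 4.34 at 5 h.

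Cohesin, the ring complex that holds sister chromatids together, had 3 of 10 genes higher (30.0%, against 4.77% of all measured genes). SMC3, a subunit of the ring in both kinds of division, had values of 1.20, 2.86, 2.21 and 1.61 over the first 4 hours. REC8, the meiotic kleisin, stood at 5.27, 6.48, 6.60 and 6.57. PDS5, a regulator of the ring, stood at 1.56, 2.65, 2.24 and 1.48. SMC3 and PDS5 therefore had a higher value at 2 h than at 1, 3 or 4 h, and REC8 stayed near its 2 h level. MCD1, the kleisin of mitotic cells, stood at 0.32 and 0.15. Among division regulators PDS1, the securin that blocks sister separation, was higher (1.13 to 2.19), and SWI5, a transcription factor of late mitosis and G1, was lower (-0.35 to -1.45). CLB1, a cyclin of the divisions, stood at -0.17 and -1.01, short of the rule.

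Meiotic recombination genes were mostly above 0 h already at 1 h. Over break formation, the chromosome axis and synapsis, and strand exchange, 10 of 39 measured genes (25.6%) were higher and 0 lower. Among all measured genes 4.77% were higher. The median difference of the 39 was 0.58, with 36 of 39 above 0. Of those 10, 9 stood at 1 or more at 1 h, the exception being MEI4 at 0.90. The 10 members ran from 0.90 to 4.13 at 1 h and from 1.95 to 5.26 at 2 h, and all 10 were higher again at 3 h.

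Break formation had 2 of 10 genes higher. SPO11, the protein that breaks both DNA strands, had values of 1.82, 3.21, 4.37 and 4.98 over the first 4 hours, and MEI4, its partner, of 0.90, 1.95, 2.49 and 2.89. Axis and synapsis had 6 of 19. GMC2 and ECM11, which act together in the central part of the synaptonemal complex, were further above 0 h at each of the first 3 hours: GMC2 had values of 1.32, 3.38 and 5.49, and ECM11 of 1.08, 2.70 and 3.67. ZIP1, which spans the complex, stood at 2.80 and 3.83. MSH5 (1.79 to 3.28) and MSH4 (3.54 to 4.83), partners in crossover formation, and SPO16 (2.12 to 3.35), also of the crossover pathway, completed the list. With columns scaled to a common SD the count was 12 of 19, and with the mean of 2 h and 3 h in place of 2 h it was 10. Higher genes over all measured rows numbered 431 and 346 under these settings, against 270. Strand exchange had 2 of 10, the partners HOP2 (3.46 to 4.90) and MND1 (4.13 to 5.26).

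Other early genes, also well above 0 h at 1 h, did not pass the rule. MEK1, a kinase of the chromosome axis, had values of 5.36 and 5.31, and DMC1, the meiotic strand-exchange recombinase, of 5.23 and 5.63. HOP1, an axis protein, stood at 4.73 and 5.36, and SPO13, which acts on kinetochores in meiosis I, at 3.60 and 4.48. With columns scaled HOP1 (1.01) and SPO13 (1.31) did pass. Of 18 meiotic regulators, SPO1 was a member (2.41 to 3.44).

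Middle sporulation genes, the set that follows NDT80, had 3 of 44 higher, 1 lower and a median difference of 0.225. The shares of 6.82% and 2.27% were near the 4.77% and 1.15% of all measured genes. SPO74, of the spindle pole body plaque from which the spore membrane grows, went from -0.99 to 0.17 and on to 8.55 at 5 h. DON1, of the growing membrane's leading edge, went from 0.64 to 1.74 and 6.48, and MAM1, which clamps sister kinetochores together, from -0.42 to 0.62 and 6.80 at the same hours. SPS4 was lower over the interval (0.70 to -0.90) and had the opposite course later, with 5.44 at 4 h and 11.75 at 8 h. The count of higher middle genes was 7 with columns scaled and 9 with the mean of 2 h and 3 h. Over all measured genes these settings gave 431 and 346 higher, against 270. Spindle pole body and kinetochore genes had 5 of 59 higher (8.5%, against 4.77% of all measured genes), with a median difference of 0.23. These included the tubulins TUB1 (1.18 to 2.36) and TUB2 (0.52 to 1.67) and the motor KAR3 (0.22 to 1.30). The others were the kinetochore subunit NNF1 (-0.57 to 0.51) and SPC98 of the tubulin-nucleating complex (0.43 to 1.46). With columns scaled 11 of the 59 passed, beside the 431 of all measured genes.

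**Figure D4:**
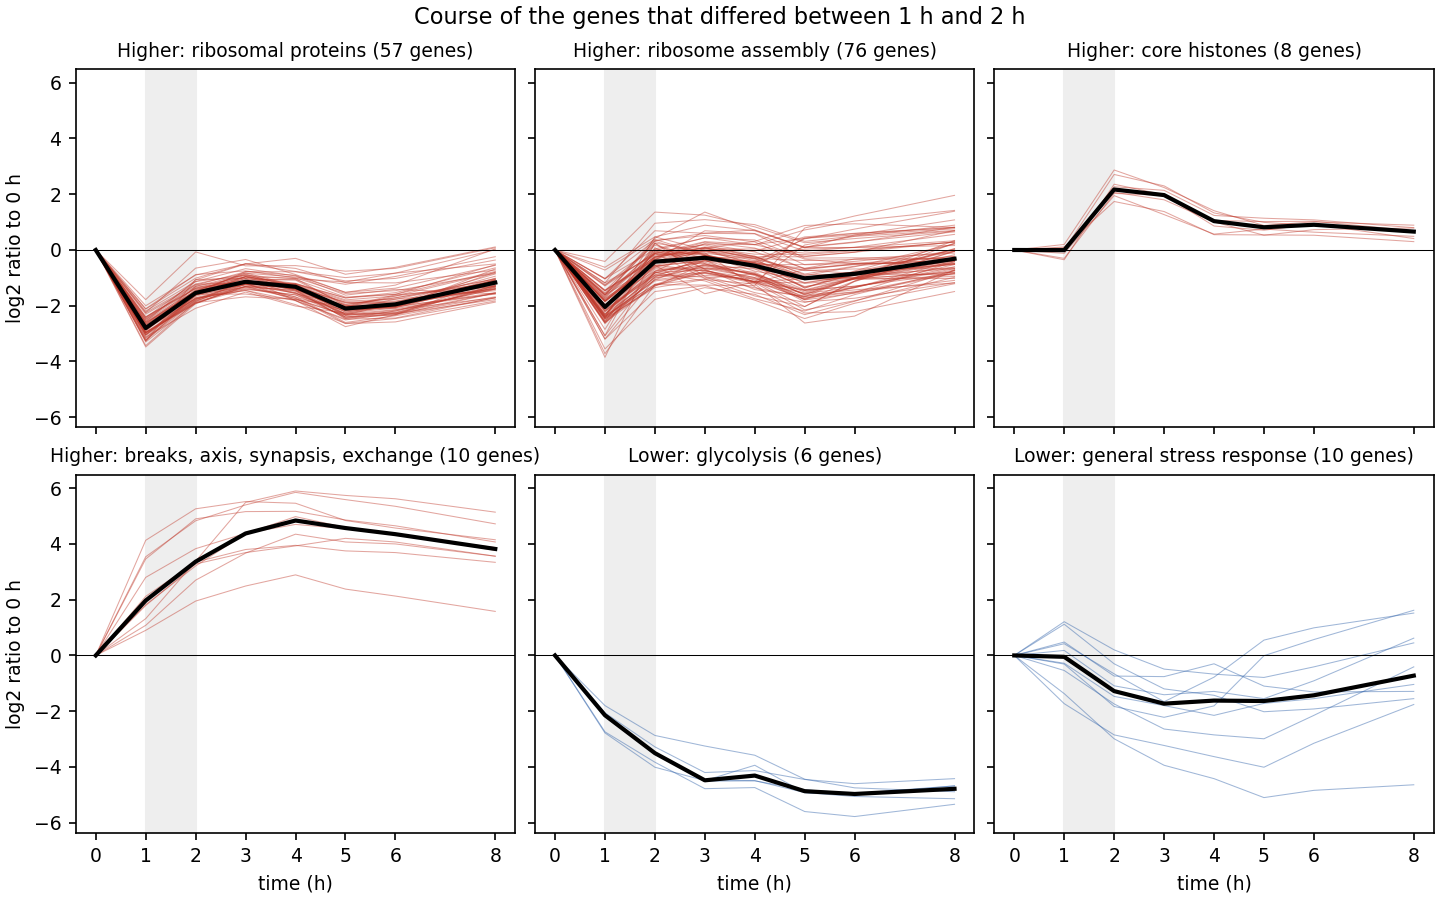
Level relative to 0 h (log2, y axis) at each hour (x axis) of the members of 6 groups, with thin lines for genes, a thick line for their median, a grey band from 1 h to 2 h, and 0 h at 0 by construction. The histone median goes from -0.005 at 1 h to 2.17 at 2 h and back to 0.66 at 8 h, the ribosomal protein median from -2.80 to -1.54, down to -2.10 at 5 h and up to -1.17 at 8 h, and the glycolysis median from -2.145 to -3.505 and -4.785 at 8 h.

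The 65 lower members started from both sides of the 0 h level. At 1 h 12 stood at -1 or less, 32 between -1 and 1 and 21 at 1 or more, and at 2 h the counts were 32, 29 and 4. The median went from 0.28 to -0.92, and 21 went from above to below the 0 h level. Here too the rule, which required a lower value at 2 h, fixes part of these counts. The 4 still at 1 or more were NRS1, DLD3, CPS1 and CTA1. NRS1, a nitrogen-responsive regulator of cell cycle entry, had values of 3.55, 1.33 and -0.02 over the first 3 hours, the largest difference of the lower members.

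General stress genes, which yeast induces under many kinds of stress, had 10 of 48 lower (20.8%, against 1.15% of all measured genes) and 0 higher. Their median difference was -0.625, with 44 of 48 below 0. YGP1, a secreted glycoprotein of starved cells, had values of -1.37, -2.99 and -3.94 over the first 3 hours. CTT1, the cytosolic catalase, had values of -0.31, -1.83 and -2.22 and reached 1.62 at 8 h. MSC1 went from 1.12 to -0.30. With columns scaled to a common SD 17 of the 48 passed, and with the mean of 2 h and 3 h in place of 2 h 16 did. Over all measured genes these settings gave 152 and 129 lower, against 65. Among heat shock chaperones 3 of 38 (7.9%) were lower. These were HSP12, a small membrane-associated protein (1.36 to 0.01), HSP32 (1.45 to 0.15) and HSP33 (1.27 to -0.01). HSP32 and HSP33 are near-identical copies whose signals may be shared. The 1 higher chaperone was YDJ1, a J-domain partner of Hsp70 (-1.02 to 0.07), and HSP26 stood at -0.34 and -0.27. The proteasome, a second quality-control system, had 0 of 45 in either direction and differences from -0.40 to 0.38.

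Glycolysis had 6 of 27 genes lower (22.2%, against 1.15% of all measured genes) and 1 higher. The median difference was -0.61, with 20 of 27 below 0. The 6 encode triose phosphate isomerase and steps after it, and all had been below 0 h at 1 h. TDH3, TDH1 and TDH2, the glyceraldehyde-3-phosphate dehydrogenase genes, went from -2.09 to -3.47, from -2.20 to -3.54 and from -2.06 to -3.28. PGK1, the phosphoglycerate kinase, went from -2.78 to -4.01, ENO1, an enolase, from -2.74 to -3.83, and TPI1, the isomerase, from -1.80 to -2.87. The TDH genes, and ENO1 with ENO2, are near-identical copies. All 6 were lower again at 3 h. The member on the other side was PFK27, which makes an activator of the pathway (-0.08 to 0.98). HXK1, a hexokinase, and PDC1, a pyruvate decarboxylase, had higher values at 2 h, from -3.29 to -2.46 and from -2.74 to -2.40, without passing the rule. The count of lower genes was 11 with columns scaled to a common SD and 10 with the mean of 2 h and 3 h. Under these settings the count over all measured genes was 152 and 129, against 65.

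The glyoxylate cycle, gluconeogenesis and acetate list, used by cells living on acetate, had 5 of 28 genes lower (17.9%) and a median of -0.435. Over all measured genes the share lower was 1.15%. ATO3 and ATO2, of the ammonium and acetate transporter family, went from 0.85 to -1.13 and from 0.59 to -0.62, and IDP3, the peroxisomal isocitrate dehydrogenase, from 1.02 to -0.17. CIT2, the glyoxylate cycle citrate synthase, stood at 1.02 and 1.26. The count of lower genes in the list was 8 with columns scaled and 10 with the mean of 2 h and 3 h. Over all measured genes it was 152 and 129, against 65. Fatty acid oxidation had 2 of 29 lower (6.90%), FAA2, which activates fatty acids (2.07 to 0.89), and CTA1, the peroxisomal catalase (2.88 to 1.87). Of 36 respiratory genes 1 (2.78%) was lower, NDE2, an external NADH dehydrogenase (2.43 to 0.96). The 23 genes of the TCA cycle had 0 members in either direction. GSY2, a glycogen synthase (-0.24 to -1.26), was the 1 of 20 trehalose and glycogen genes (5.0%) that was lower. Shares of lists with 1 or 2 members rest on few rows.

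Genes for poor nitrogen sources had 1 of 33 lower and 1 higher, 3.03% each, against 1.15% and 4.77% of all measured genes. Even so, 29 of the 33 lay below 0 and their median was -0.32. The lower member was CPS1, a vacuolar carboxypeptidase (2.53 to 1.50), and the higher one ASP1, the cytosolic asparaginase (-1.16 to 0.23). MEP2, the high-affinity ammonium transporter, had values of 6.61 and 5.83, and DAL80, a repressor of nitrogen genes, of 4.84 and 3.94. Amino acid permeases had 3 of 31 higher (9.68%) and 1 lower (3.23%), with a median difference of 0.03 over the list. GNP1, the glutamine permease, went from -4.68 to -3.27 and BAP2, for branched-chain amino acids, from -2.21 to -0.90, while PUT4, the proline permease, went from -2.09 to -3.38. The third was TPO2, a polyamine exporter (-0.07 to 0.95). Of 19 arginine and polyamine genes 1 (5.26%) was higher, ARG8, an ornithine pathway enzyme (0.80 to 1.98). Branched-chain, lysine, histidine and aromatic synthesis had 2 of 52 (3.85%) higher. These were BAT1, a branched-chain aminotransferase (0.58 to 1.83), and ARO4, the first enzyme of aromatic synthesis (0.01 to 1.10). Both shares were near the 4.77% of all measured genes. GCN4, the activator of these pathways, stood at 0.51 and 0.97. ARG8 was at 0.51 at 3 h, below its 1 h level.

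Several lists held 1 to 3 members each. Higher were 2 of 23 hexose transporter genes, 3 of 36 lipid synthesis genes, 1 of 23 phosphate genes and 1 of 13 zinc genes. So were 2 of 45 mating genes, 1 of 30 bud growth genes, 1 of 48 cell wall genes and 1 of 38 nuclear transport and exosome genes. These shares ran from 2.08% to 8.70%, around the 4.77% of all measured genes. Lower were 1 of 48 cell wall genes (2.08%) and 2 of 38 iron and copper genes (5.26%), against 1.15% of all. HXT10, a hexose transporter gene, was higher (-1.70 to 0.35) and stood at 7.93 at 8 h. ELO2 (-0.84 to 0.81) and OLE1, the fatty acid desaturase (-0.69 to 0.57), joined ELO3 in the fatty acid list. The sodium-phosphate transporter gene PHO89 was higher (2.27 to 3.59), as were IZH1 of the zinc response (-0.86 to 0.67), AGA2 of a-agglutinin (1.50 to 3.43) and STE3, the a-factor receptor gene (0.57 to 1.69). The same held for TOS4, a forkhead-domain protein gene (1.30 to 2.48), GAS3, of the glucan-remodelling family (0.35 to 1.47), and MTR3, an exosome subunit (-0.72 to 0.56). SPI1, a cell wall protein gene also in the stress list (-0.28 to -1.47), FRE7, a metal reductase (-0.60 to -1.86), and HMX1, the haem oxygenase (-0.46 to -1.52), were lower. INO1, of inositol synthesis, stood at 1.97 and 1.75, and the cyclins CLN2 and CLB2 at -0.19 and -0.40 and at -0.24 and -0.49.

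The levels at later hours were not used to choose the members, although any difference from 1 h shares that column. Of the 270 higher members, 245 (90.7%) were still at least 1 above their 1 h level at 3 h and 227 at 4 h. The count was 128 (47.4%) at 5 h, 150 an hour later and 211 (78.1%) by 8 h. The median level followed the same course, with -0.18 at 3 h, a second low point of -0.88 at 5 h and -0.235 by 8 h. For 250 of the 270 (92.6%), 1 h was the lowest of the 7 values, against 1572 of all 5666 genes (27.7%); members had to be lower at 1 h than at 2 h, so the rule fixes part of this count. Ribosomal protein members kept the difference in 57 of 57 cases at 3 h, 15 at 5 h and 55 at 8 h. Core histones kept it in 8 of 8 at 3 h, 3 at 5 h and 0 at 8 h.

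The lower members kept their difference more evenly, in 62 of 65 cases (95.4%) at 3 h, 57 at 5 h and 40 (61.5%) at 8 h. The 6 glycolytic members kept it at each later hour, while the stress members kept it in 10 of 10 cases at 3 h and 3 at 8 h. At 8 h 18 of the 65 were back within 0.5 of the 1 h level or above it. From 2 h to 3 h the median of the per-gene differences was 0.33 among the higher members, 199 of which had a higher value at 3 h. It was -0.52 among the lower members, 60 of which had a lower value at 3 h. Over all measured genes that median was 0.005.

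Gene order along the chromosomes was compared through the RefSeq R64 annotation. Of the 254 higher members that it holds, 49 (19.3%) lay next to another higher member, and among all 5238 annotated measured genes 490 (9.36%) lay next to one. The higher members formed 28 such pairs, 12 divergent, 11 tandem and 5 convergent. Of all neighbouring pairs of measured genes 25.5% were divergent, 49.0% tandem and 25.4% convergent. They included the 4 histone pairs, each transcribed from a shared divergent region, and NSA2 with LCP5, NOP56 with PWP1, NOP2 with GCD10 and MSH5 with SAS10. AGA2 stood in a run of HOP2, AGA2, RPL24A, RPL30 and CGR1, in which all 5 were members although they belong to different lists. Lower members formed 3 pairs, holding 6 of 58 annotated lower members (10.3%), while 2.18% of all annotated measured genes lay next to a lower member. Each pair was of an ERR gene with HSP32, HSP33 or SNO4, which are near-identical copies of one block. Whether neighbours share signal on the array was not tested.

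The annotation does not hold 23 of the members. In systematic numbering 11 of these adjoin a member of the same direction, among them YLR198C (1.60) beside NOP56 (1.78) and YCR013C (-1.0) beside PGK1 (-1.23). The probe design was not given in the sources used here, and whether such rows and their neighbours measured the same transcripts was not tested.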

How the data were processed

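Per the labels and the series design, poly(A)+ RNA of each time point (Cy5) was hybridised with a common meiotic mix (Cy3), and the authors divided each ratio by the 0 h ratio and deposited log2 values. How the 3 cultures were combined, background correction, normalization, filters, strain, platform and whether columns were centred were not given in the sources used here. No spot intensities were used; precision is limited by how few arrays there are.

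Groups were the 7 time points, 1 column each, with 0 sample columns unused. The 2 h value minus the 1 h value was computed per row, rounded to 2 decimals and kept at 1 or more either way, so a fold is a ratio of the authors' ratios. With 1 column per hour no test was run. Rows were matched by systematic name to RefSeq R64 (5238 of 5666), and 51 gene lists were applied. Members and lists were chosen with earlier results of these data known. Named were the 15 largest differences in each direction, up to 3 per list and direction, 19 measured of 20 landmark genes, and 5 rows inside and outside the threshold on each side. Other genes were named after their values were seen. A difference was kept at a later hour while still 1 or more from the 1 h level. Other thresholds, scalings, centring, a mean of 2 h and 3 h, and protein-coding rows alone were alternatives. Motif searches were not run, since no promoter sequence was used here. The rule was run on simulated data with inserted differences past the threshold and smaller noise, a check of the code only. Python 3.11.15, pandas 2.3.3 and numpy 2.4.6 were used.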

Additional observations from a re-analysis of the deposited data

How the results depend on the processing

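With the main rule 270 genes were higher and 65 lower. A log2 threshold of 0.6 gave 634 and 271, and one of 2 gave 31 and 1. Scaling each column to the mean SD of all columns gave 431 and 152; that mean includes the wider columns from 4 h on, so the scaling acts like a lower threshold. The mean of 2 h and 3 h in place of 2 h gave 346 and 129. In alternatives chosen after seeing the data, 3 h minus 1 h gave 475 and 212, of which 245 and 62 were among the main members, and scaling 2 h to the SD of 1 h gave 279 and 67. Centring on the median (277 and 60) and protein-coding rows alone (254 and 58) stayed within 1.5 times. Of the genes named by the rule, 113 members and 25 others were recomputed under the scaling and the mean of 2 h and 3 h. Both settings reuse the 1 h and 2 h columns that chose the members, so the rule fixes part of the outcome. None of the 113 members changed sign. CIT2, which was not a member, did under the mean, at -0.16 against 0.24. Under that mean 106 of 113 named members kept a difference of 1, and SPS4 (-0.61), PDS5 (0.89), CLB5 (0.98), PDS1 (0.98), ARG8 (0.45), TPO2 (0.99) and TOS4 (0.93) did not. Of 17 counts by list with 3 or more members, 6 moved by over 1.5 times under the scaling and 5 under the mean; each was higher. No paired analysis was possible because each time point has 1 column and no replicate numbers, and no column could be left out in turn. Signal over background is unknown, so how far dim spots shaped a difference could not be measured, and an error in the 1 h column enters every difference given from it.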

Other observations

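Outside the gene lists stood 68 of the 270 higher and 30 of the 65 lower members. Some of the higher ones also act around the ribosome. RMT2, the arginine methyltransferase of a large-subunit protein, had values of -3.62, -0.88 and 0.19 over the first 3 hours. PRP43, a helicase of splicing and ribosome assembly, went from -2.39 to -0.42, HMT1, another arginine methyltransferase, from -1.48 to -0.16, and RLI1, of ribosome recycling, from -1.24 to -0.10. ELP2 (-1.07 to 0.20) and ELP3 (-1.38 to -0.18), of the Elongator complex that modifies transfer RNA, were both higher. Others were far above 0 h at 8 h. GAT4, a GATA-type zinc finger gene, went from -1.68 to 0.99 and reached 8.31 at 8 h, and the uncharacterized YPR027C went from 0.81 to 2.52 and reached 7.80. SGO1, the protector of centromeric cohesin, went from -0.07 to 1.00 and stood at 3.07 at 8 h. SLK19, a kinetochore protein, went from 0.62 to 1.74 and stood at 0.24 at 8 h.

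Lower members outside the lists included both enzymes of glycerol use, GUT1, the glycerol kinase (-1.09 to -2.11), and GUT2, the glycerol-3-phosphate dehydrogenase (-0.10 to -1.51). The lactate dehydrogenase genes CYB2 (-0.82 to -2.23) and DLD3 (2.63 to 1.47) were lower as well, as were GOR1, a glyoxylate reductase (-0.05 to -1.43), GLO1, of methylglyoxal removal (0.75 to -0.56), and TKL2, a transketolase (1.13 to -0.32). The mitochondrial carriers ODC1, for oxodicarboxylates (-0.03 to -1.22), and DIC1, for dicarboxylates (1.22 to 0.15), were lower too. ERR3, of the enolase-related repeats, went from -0.31 to -1.64. EMI2, a gene for a glucokinase-like protein, went from -0.22 to -1.33 and stood at 5.72 at 8 h, the opposite of its direction over the interval, as SPS4 did.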
